A study of Oryctolagus cuniculus with 12 samples.

Results

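WNT proteins are secreted, lipid-modified ligands that bind frizzled receptors and the co-receptors LRP5 and LRP6, which keeps beta-catenin from being degraded and lets it act with TCF/LEF factors in the nucleus, while other WNT signals act on cell polarity and movement without beta-catenin. Secreted proteins of the SFRP, FRZB, WIF1 and DKK families hold the pathway back, either by binding WNT proteins or by binding the co-receptors. The membrane ubiquitin ligases RNF43 and ZNRF3 remove frizzled receptors from the cell surface, and R-spondins, through LGR4, LGR5 and LGR6, block these ligases and so sensitize cells to WNT. In the ocular surface, the pathway is known for its part in the maintenance of epithelial stem cells and in the repair of the stroma.

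The genes described here are the WNT ligands (WNT), the frizzled receptors (FZD) with LRP5 and LRP6, the secreted antagonists (SFRP, FRZB, WIF1 and DKK), the R-spondins (RSPO) with LGR4, LGR5, LGR6, RNF43 and ZNRF3, and the feedback inhibitors AXIN1, AXIN2 and NKD1. They were chosen by gene symbol and by a minimum of 10 counts in 3 libraries. Of 20566 genes in the table, 51 had a matching symbol, and 46 of these met the minimum, namely 16 of 18 ligands, 11 of 11 receptors, 8 of 10 secreted antagonists, 8 of 9 genes of the R-spondin axis and 3 of 3 feedback inhibitors. WNT3A, WNT9B, DKK4, SFRP5 and RSPO4 did not meet it. All 46 genes were also among the 14835 genes tested. WNT3, WNT6, FZD9 and RSPO2 reached 10 counts in 3 libraries only by way of 1 time point (TL3d for WNT3 and RSPO2, TL14d for WNT6 and TL3h for FZD9), so a higher level at that time point was in part a condition of their choice.

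RNA of conjunctiva from female Japanese white rabbits was sequenced in 12 libraries, 3 per group. The TL3h, TL3d and TL14d groups were bleb conjunctiva of right eyes, taken 3 hours (TL3h), 3 days (TL3d) or 14 days (TL14d) after trabeculectomy (TL), a glaucoma operation that drains aqueous humor into a bleb under the conjunctiva. In the study's protocol the operated eyes received mitomycin C, which crosslinks DNA, at the operation, and a betamethasone injection and an antibiotic ointment at its end, so the operation and these drugs cannot be told apart. The control group was conjunctiva of left eyes without the operation. The labels do not give the animals' age, the time at which a control eye was taken or the operated eye it belongs to, and p-values measure the spread between these libraries. Total counts per library ranged from 27111348 to 38591425. Levels are CPM (counts scaled to a common library size, adjusted by the trimmed mean of M-values, TMM), given as mean ± SD (n = 3 each). Where a gene had no counts, its level could still be up to the floor of 3 counts per library (0.0712 to 0.124 CPM), a limit that covers counting error only. Tests were made with edgeR (quasi-likelihood) over all genes, log2 fold changes (log2FC) are given with the standard error (SE), q is the Benjamini-Hochberg adjusted p of that test, and a gene was called at q under 0.05.

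The labelled tissue was checked against marker genes. Summed levels of 6 epithelial genes lay between 4547 and 16319 CPM in all libraries, but single members differed: EPCAM rose at 3 hours (155 ± 13.8 to 310.3 ± 49.5 CPM, q = 0.000884 by edgeR), and at 3 days KRT5 rose (1963 ± 719 to 7102 ± 3045 CPM, q = 0.0291) and KRT15 fell (2219.8 ± 683 to 272 ± 146 CPM, q = 0.0291). The summed levels of some other cell types differed between groups. Those of 6 neutrophil genes were 3.49 to 82.4 CPM in controls, 1049 to 2791 in TL3h tissue, 126 to 739 in TL3d tissue and 3.33 to 114 in TL14d tissue, and those of 9 fibroblast genes were 12497 to 77576 CPM in controls, 106008 to 127550.2 in TL3h tissue, 1486 to 65189.6 in TL3d tissue and 11199 to 57506 in TL14d tissue. Those of 7 endothelial genes were 68.1 to 298 CPM in controls, 642 to 1262 in TL3h tissue, 306 to 568 in TL3d tissue and 92.5 to 302 in TL14d tissue. The TL3h sums came mostly from PECAM1, which leukocytes and platelets also carry (55.8 ± 69.7 CPM in controls and 716 ± 257 in TL3h tissue). CDH5 (14.9 ± 15.3 and 82 ± 27.2 CPM), VWF (42.5 ± 30.1 and 77.8 ± 16.3 CPM), ERG (4.24 ± 3.59 and 11 ± 2.3 CPM) and CLDN5 (9.13 ± 5.4 and 30.2 ± 6.98 CPM) also had higher means in TL3h tissue. KDR (32.8 ± 13.4 and 18.6 ± 7.48 CPM) and TEK (8.09 ± 5.73 and 6.35 ± 0.0699 CPM) had lower means in TL3h tissue without a call. The sums of 5 macrophage genes were 69.2 to 587, 501 to 744, 1178 to 1951 and 92 to 339.8 CPM. The sums of 5 T cell genes, between 6.62 and 22.1 CPM, overlapped across all groups, as did those of 3 adipocyte genes (17.5 to 142 CPM), and those of 3 goblet cell genes overlapped for controls and TL3h tissue. Those of 6 Schwann cell genes did not overlap between controls (16.4 to 24.9 CPM), TL3h tissue (32.5 to 49.4 CPM) and TL3d tissue (7.17 to 11.2 CPM). The 4 pigment cell genes summed to 74.3 CPM in TL14d replicate 2 and to at most 28.3 CPM in the other libraries, and 3 skeletal muscle genes were above 10 CPM in control replicate 2 (249 CPM) and TL3d replicate 3 (288 CPM) alone of the 12 libraries. No epithelial, fibroblast, endothelial, neutrophil or macrophage marker was at 0 in every library of a group. In bulk tissue, fewer cells of a type and less RNA per cell cannot be told apart. Control replicate 3, TL3d replicate 3 and TL14d replicate 1 stood apart from their groups, and the counts of calls are also given without them.

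The order of levels between genes was read from the deposited FPKM values, which are divided by transcript length. In the control group the 18 ligands summed to 71.9 ± 21.9 FPKM. WNT4, a ligand that acts in epithelial and gonadal development, made up 30.8% ± 15.3 of this sum, and WNT11, a ligand known for signals without beta-catenin, made up 21.4% ± 7.27. The next shares were 8.78% ± 3.13 for WNT10A, 7.74% ± 2.72 for WNT10B, 7.65% ± 0.186 for WNT2 and 6.63% ± 2 for WNT5A, and these 4 did not differ beyond their spread. The 9 frizzled receptors summed to 68.2 ± 4.90 FPKM, of which FZD6 took 40.8% ± 12.6, FZD1 26.8% ± 11.5 and FZD4 21.6% ± 1.11. FZD6 and FZD1 did not differ beyond their spread, and each of the other 6 frizzled receptors took below 3% on average. Among the secreted antagonists, WIF1 was at 112 ± 108 FPKM, FRZB at 55.7 ± 51.8 and SFRP2 at 55.0 ± 54.2, with SDs about as large as the means. LGR4 made up 92.4% ± 2.31 of the summed FPKM of the 3 LGR receptors. WIF1 had the highest level of all WNT genes in each control library, at 43.1, 57 and 237 FPKM. The means of FRZB (21.1, 30.8 and 115 FPKM) and SFRP2 (8.52, 42 and 114 FPKM) rest on control replicate 3, and both genes were below LGR4 and WNT4 in control replicate 1.

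At 3 hours, 16 of the 46 WNT genes were called (34.8%), beside 45.4% of all genes tested. Of these, 6 rose and 10 fell, beside 23.2% and 22.2% of all genes. The median log2FC was -0.22 over the 46 genes and 0.02 over all genes. The groups did not overlap for 21 of the 46 genes, beside 57.3% of all genes. At an unadjusted p under 0.05 there were 18 of the 46, beside 52.3% of all genes. The difference between the WNT genes and all genes was not tested.

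**Figure D1:**
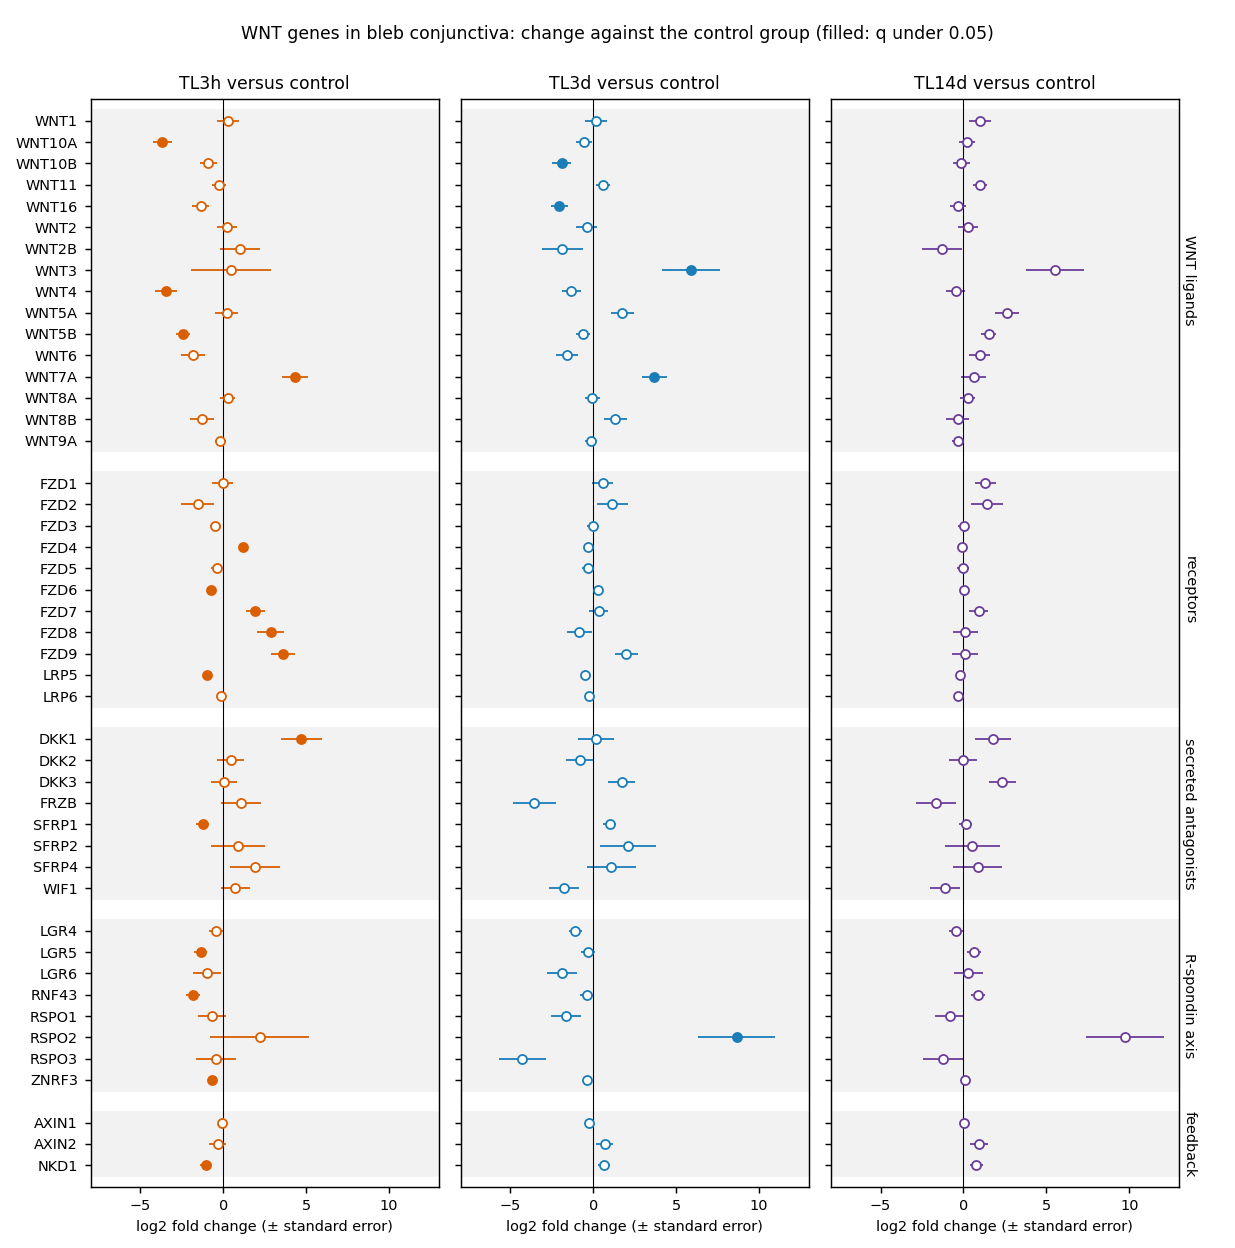
Change of each of the 46 WNT genes against the control group in TL3h, TL3d and TL14d (x axis, log2 fold change with its standard error, n = 3 libraries per group; y axis, genes by role). Filled points are called at q under 0.05: 16 at 3 hours, 5 at 3 days and 0 at 14 days.

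Among the ligands at 3 hours, 4 of 16 were called (25%), beside the 45.4% of all genes. WNT10A, WNT4 and WNT5B fell, and WNT7A rose. WNT10A (chromosome 7 of OryCun2.0, 160141378 to 160153020), a ligand of epithelial appendages and stem cells, was at 22.2, 18.1 and 5.97 CPM in control libraries and at 0.730, 1.33 and 1.57 CPM in TL3h libraries. Every TL3h library lay below every control library (log2FC -3.67, SE 0.55, q = 0.000548 by edgeR). Its neighbor WNT6 (chromosome 7, 160131267 to 160134346), at 0.524 ± 0.363 CPM in controls and 0.146 ± 0.0917 CPM in TL3h tissue, had a log2FC of -1.83 and was not called (q = 0.0558 by edgeR).

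WNT4 (chromosome 13, 130922081 to 130930085) was at 43.7, 44.7 and 9.28 CPM in control libraries and at 2.81, 2.74 and 3.36 CPM in TL3h libraries. The TL3h libraries lay close together and below even control replicate 3, the lowest of its group (log2FC -3.45, SE 0.65, q = 0.00191 by edgeR). WNT5B (chromosome 8, 36029358 to 36156829), which is close in sequence to WNT5A, was at 5.41, 3.88 and 3.18 CPM in control libraries and at 0.999, 0.954 and 0.366 CPM in TL3h libraries. Again the groups were apart (log2FC -2.43, SE 0.45, q = 0.00186 by edgeR). Control replicate 3, the lowest control library for these 3 ligands, also had the lowest epithelial sum of its group (5322 CPM against 10920.1 and 8770), and that of TL3h libraries was 4547 to 7321 CPM. The sums came mostly from KRT4, KRT5 and KRT15. KRT4, KRT15 and TP63 had lower means in TL3h tissue than in controls, and KRT5, EPCAM and CDH1 had higher ones. TL3d replicates 1 and 2 had the highest sums of all libraries (16319 and 14509.7 CPM), with WNT4 at 13.6 and 12.6 CPM. The part of the epithelial share in the levels of the 3 ligands was not tested. WNT5A itself was at 4.90 ± 0.0693 CPM in controls and 5.68 ± 2.14 CPM in TL3h tissue (q = 0.832).

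WNT7A (chromosome 9, 4694890 to 4737401), a ligand of surface epithelia that is known for its role in corneal differentiation, was at 0.403, 0.250 and 0.251 CPM in control libraries and at 5.23, 6.39 and 6.80 CPM in TL3h libraries. All 3 libraries at 3 hours were over 10 times higher than any control library (log2FC 4.33, SE 0.78, q = 0.00146 by edgeR). WNT11, the ligand with the highest mean CPM over all 12 libraries but not in controls or TL3h tissue alone, was at 42.8, 21.3 and 28.8 CPM in control libraries and at 29.3, 14.5 and 33.5 CPM in TL3h libraries. These values overlapped (log2FC -0.26, q = 0.655). In the TL3d libraries WNT11 was at 63.5, 53.8 and 20.1 CPM, and in TL14d libraries at 70.0, 63.1 and 53.0 CPM, where all 3 lay above the control libraries without a call (log2FC 1, q = 0.476).

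The mix of ligands therefore differed between the control and TL3h libraries, as the plot of family composition shows. The summed FPKM of the ligands was 47.7 to 90.4 in control libraries and 28.3 to 31.9 in TL3h libraries. The share of WNT4 in that sum was 35.8%, 42.9% and 13.6% in control libraries and 5.20%, 4.48% and 5.67% in TL3h libraries. The share of WNT7A was 0.167% to 0.254% in control libraries and 6.71% to 7.94% in TL3h libraries. WNT11 had the highest share of the TL3h group on average, 29.5% ± 12. FPKM values carry no correction for the composition of a library, so these shares compare genes within a library and were not tested.

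Of the 11 receptors, 6 were called at 3 hours, beside the 45.4% of all genes, and differences between roles were not tested. FZD4, FZD7, FZD8 and FZD9 rose, and FZD6 and LRP5 fell. FZD4 (chromosome 1, 129790800 to 129799807), which also binds norrin, the ligand of retinal vessel growth, was at 107, 99.2 and 125 CPM in control libraries and at 246, 259 and 258 CPM in TL3h libraries. Its values varied little within each group and did not overlap (log2FC 1.21, SE 0.20, q = 0.000955 by edgeR). The summed endothelial genes were 68.1, 137 and 298 CPM in these control libraries and 921, 1262 and 642 CPM in these TL3h libraries. PECAM1 made up 717, 972 and 459 CPM of the TL3h sums. CDH5, VWF, ERG and CLDN5 also had higher means in TL3h tissue, and KDR and TEK had lower ones. The part of these genes in the level of FZD4 was not tested. LRP5, a co-receptor of frizzled receptors, was at 23.8, 24.6 and 24.2 CPM in control libraries and at 14.0, 9.79 and 12.7 CPM in TL3h libraries. It fell in every library (log2FC -0.99, SE 0.19, q = 0.00221 by edgeR). LRP6, the other co-receptor, was at 110.2 ± 10.8 CPM in controls and 102 ± 25.2 CPM in TL3h tissue and was not called (q = 0.758).

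The other called receptors moved from low control levels or by smaller amounts. FZD8 went from 1.87 ± 1.64 to 13.5 ± 8.86 CPM (log2FC 2.85, SE 0.79, q = 0.0142 by edgeR), FZD7 from 3.98 ± 0.422 to 15.1 ± 6.75 CPM (log2FC 1.92, SE 0.57, q = 0.019), and FZD9 from 0.0659 ± 0.0525 to 0.851 ± 0.310 CPM (log2FC 3.62, SE 0.72, q = 0.00259). The rise of FZD9 was in part a condition of its choice, since it met the minimum count only by way of TL3h. FZD6, a receptor that acts in planar cell polarity, went from 88.8 ± 20 to 53.6 ± 9.03 CPM (log2FC -0.73, SE 0.27, q = 0.047). FZD1, FZD2, FZD3 and FZD5 were not called (q = 0.238 to 0.962). The share of FZD4 in the summed frizzled FPKM was 20.4% to 22.6% in control libraries and 32.4% to 40.5% in TL3h libraries, while that of FZD6 was 26.2% to 48.2% and 12.9% to 22.8%.

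Of the 8 secreted antagonists, DKK1 and SFRP1 were called at 3 hours, beside the 45.4% of all genes, and in opposite directions. DKK1 (chromosome 18, 33155927 to 33158550), which binds LRP5 and LRP6 and blocks beta-catenin signaling, was at 0.688, 0.450 and 2.21 CPM in control libraries and at 27.7, 35.0 and 24.9 CPM in TL3h libraries. The lowest TL3h library was over 10 times the highest control library (log2FC 4.71, SE 1.24, q = 0.011 by edgeR). In the sum of the 4 DKK genes in FPKM, DKK1 took 1.64% ± 0.491 in controls and 27.5% ± 4.99 in TL3h tissue. SFRP1, which binds WNT proteins, went from 39.9 ± 11.8 to 16.9 ± 5.90 CPM (log2FC -1.24, SE 0.40, q = 0.0263).

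WIF1, which also binds WNT proteins and had the highest mean FPKM of the antagonists in controls, was at 107, 141 and 627 CPM in control libraries and at 348, 538 and 556 CPM in TL3h libraries. Control replicate 3 was above all TL3h libraries, so the groups overlapped (log2FC 0.72, SE 0.88, q = 0.54). FRZB, at 50.3, 72.7 and 291 CPM in control libraries, had the same order among them, and SFRP2, SFRP4 and DKK2 were also highest in control replicate 3. In TL3h libraries FRZB was at 147, 459 and 278 CPM, and TL3h replicate 2 was above control replicate 3. The summed level of the 9 fibroblast genes, mostly COL1A1, COL1A2 and COL3A1, was 12497, 35896 and 77576 CPM in the control libraries. WIF1, FRZB, SFRP2, SFRP4 and DKK2 had the same order there. The TL3h sums were 106008, 127550.2 and 108231 CPM, and of these genes only FRZB and DKK2 had that order. The TL14d sums were 27267, 11199 and 57506 CPM, an order shared by SFRP2, SFRP4 and DKK2. WIF1 (319, 26.1 and 63.8 CPM) and FRZB (112, 3.69 and 14.5 CPM) had another order in TL14d libraries. The part of the fibroblast share in these values was not tested.

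In the R-spondin axis at 3 hours, 3 of 8 genes were called (37.5%), and all of them fell, beside the 45.4% of all genes called and 22.2% lower. RNF43 (chromosome 19, 29849748 to 29916249) was at 29.1, 28.7 and 13.7 CPM in control libraries and at 9.53, 3.24 and 7.79 CPM in TL3h libraries. The groups did not overlap (log2FC -1.80, SE 0.42, q = 0.00639 by edgeR). ZNRF3, the other ubiquitin ligase, went from 21.0 ± 1.24 to 12.9 ± 2.90 CPM (log2FC -0.70, SE 0.23, q = 0.0284). LGR5, a receptor of R-spondins that marks stem cells in several epithelia, went from 6.93 ± 2.14 to 2.68 ± 0.0654 CPM (log2FC -1.37, SE 0.41, q = 0.0205).

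LGR4, which had the highest mean FPKM of the R-spondin axis in controls, was at 193, 170.3 and 72.8 CPM in control libraries and at 58.9, 136 and 127 CPM in TL3h libraries, which overlapped (log2FC -0.44, q = 0.423). It was at 79.4, 69.7 and 57.9 CPM in TL3d libraries and at 151, 74.4 and 93.5 CPM in TL14d libraries. Of the feedback inhibitors, among which AXIN2 and NKD1 are known to be induced by WNT signals in many tissues, NKD1 was called and went from 4.28 ± 0.0843 to 2.08 ± 0.639 CPM (log2FC -1.04, SE 0.37, q = 0.0431). AXIN1 was at 30.5, 29.9 and 31.0 CPM in control libraries and at 26.5, 28.5 and 32.2 CPM in TL3h libraries (log2FC -0.07, q = 0.713). AXIN2 had a log2FC of -0.33 (SE 0.52, q = 0.643). For AXIN1 and AXIN2 the difference between controls and TL3h was smaller than the spread between libraries.

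Of the 16 calls at 3 hours, 9 were not ended by leaving out any single library, namely WNT10A, WNT4, WNT5B, WNT7A, FZD4, FZD9, LRP5, DKK1 and RNF43. The log2FC of DKK1 was 5.61 without control replicate 3, and that of FZD9 was 4.41 without control replicate 2. The other 7 were lost without 1 or another library. FZD8 was lost without control replicate 1 or 2 or TL3h replicate 2 (q = 0.0542 to 0.0602, with a log2FC of 2.13 without TL3h replicate 2 and of 3.81 without control replicate 3), FZD7 and SFRP1 without control replicate 1 or 2 or TL3h replicate 2 or 3 (q = 0.0523 to 0.0708 and 0.0577 to 0.0941), LGR5 without control replicate 1 or TL3h replicate 2 (q = 0.0807 and 0.0529), and ZNRF3 without control replicate 1 or 2 or TL3h replicate 1 or 2 (q = 0.0512 to 0.0758). FZD6 and NKD1 were each lost without any 1 of 7 libraries, among them control replicates 1 and 2 and TL3h replicates 2 and 3 (q = 0.0511 to 0.143 and 0.0546 to 0.12). FZD6 also needed TL3d replicate 2 and TL14d replicates 2 and 3, and NKD1 needed control replicate 3, TL3d replicate 2 and TL14d replicate 2. With the replicate number as a block, FZD6 (q = 0.0611) and NKD1 (q = 0.0639) were lost as well. The count over the 46 genes was 10 without control replicate 1 and 20 without control replicate 3, TL3d replicate 3 and TL14d replicate 1, where 52.7% of all genes were called. With library size only in place of TMM, the median of all genes at 3 hours was -0.47, and 5 WNT genes rose and 15 fell, in place of 6 and 10. FZD7 was also lost with library size only (q = 0.053).

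**Figure D2:**
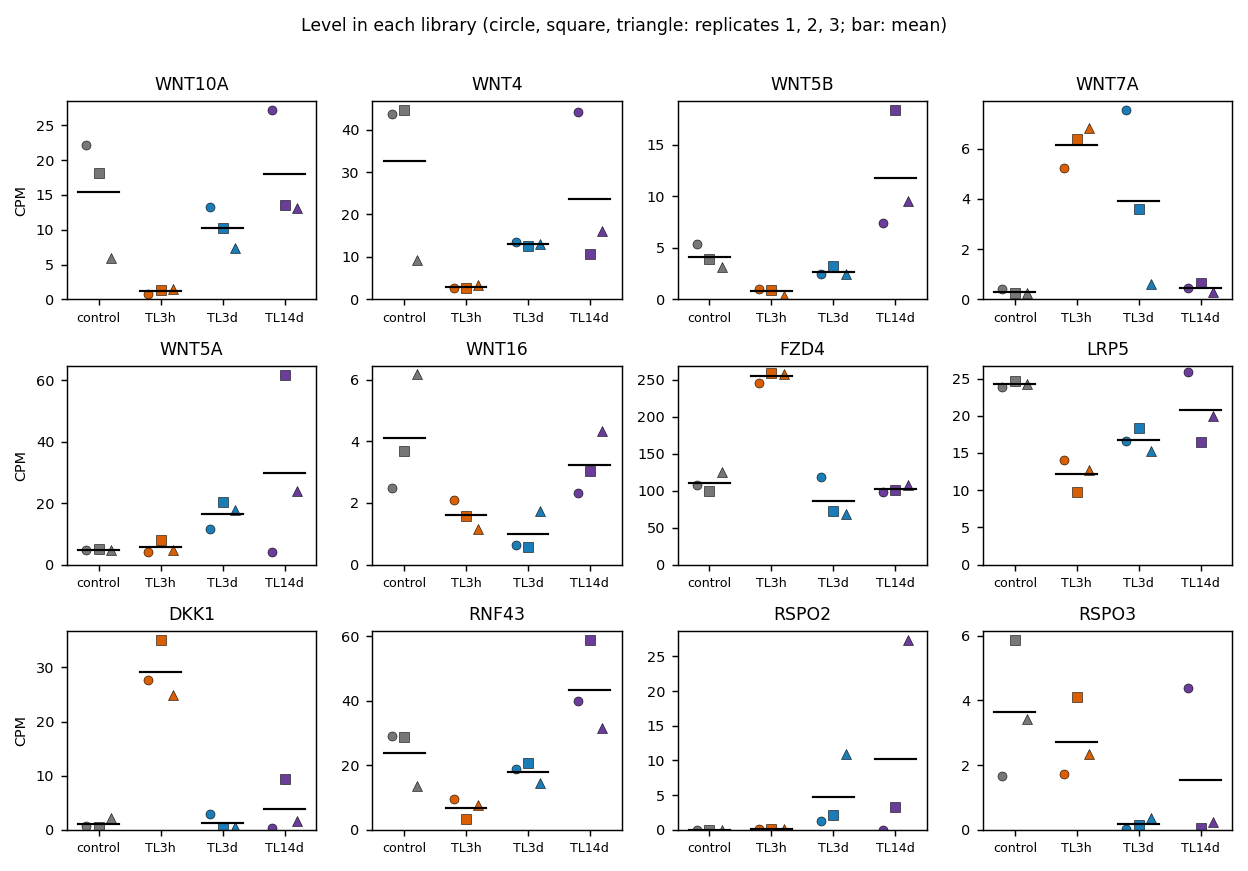
Level in CPM (y axis, from 0) of 12 WNT genes in each library of the 4 groups (x axis), where circle, square and triangle are replicates 1, 2 and 3 and the bar is the mean. WNT10A, WNT4, WNT5B, LRP5 and RNF43 are low and WNT7A, FZD4 and DKK1 are high in all 3 TL3h libraries, and RSPO2 is above its control level in all TL3d libraries and in 2 of the 3 TL14d libraries.

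At 3 days, 5 of the 46 WNT genes were called (10.9%), beside 17.6% of all genes tested. RSPO2, WNT3 and WNT7A rose, and WNT16 and WNT10B fell. RSPO2 and WNT3 met the minimum of 10 counts in 3 libraries only by way of TL3d, so their rise was in part a condition of their choice. Calls higher than the control group made up 10.6% and calls lower 7% of all genes. The groups did not overlap for 14 of the 46 genes (6 higher and 8 lower), beside 45.5% of all genes (23.8% higher and 21.7% lower). At an unadjusted p under 0.05 there were 13 of the 46, beside 36.2% of all genes. No receptor, secreted antagonist or feedback inhibitor was called by edgeR, with 2, 2 and 0 of them at an unadjusted p under 0.05. DESeq2 called 10 of the 46 genes, these 5 and FRZB, LGR4, LRP5, RSPO3 and WNT5A, beside 30.1% of all genes.

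RSPO2 (chromosome 3, 123298532 to 123481247), an R-spondin with roles in limb, lung and muscle development, had at most 1 count in each control library, at 0, 0 and 0.0251 CPM. It was at 0.0384, 0.0415 and 0.0731 CPM in TL3h libraries and at 1.2, 2.09 and 10.9 CPM in TL3d libraries. All TL3d libraries were above all libraries of the control and TL3h groups, and the mean was at least 64.2-fold higher than the floor of the control group (q = 0.0334 by edgeR). Without TL3d replicate 3 this limit was 22.3-fold. RSPO3, which acts in vessel growth, was at 1.66, 5.85 and 3.41 CPM in control libraries and at 0.0250, 0.154 and 0.370 CPM in TL3d libraries. These values did not overlap either, but the gene was not called (log2FC -4.30, SE 1.42, q = 0.0615 by edgeR, and q = 0.00362 by DESeq2). RSPO1 was at 3.25 ± 2.17 CPM in controls and 1.04 ± 1.16 CPM in TL3d tissue (q = 0.207).

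The composition of the R-spondins differed accordingly. RSPO2 took 0% to 0.171% of their summed FPKM in control libraries, 0.419% to 1.05% in TL3h libraries and 64.4% to 76.3% in TL3d libraries. RSPO3 took 34.3% to 74.6% in control libraries and 2.35% to 6.99% in TL3d libraries. The sum itself was 1.75 to 3.89 FPKM in controls and 0.442 to 4.31 FPKM in TL3d tissue, so it overlapped while its make-up did not.

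**Figure D3:**
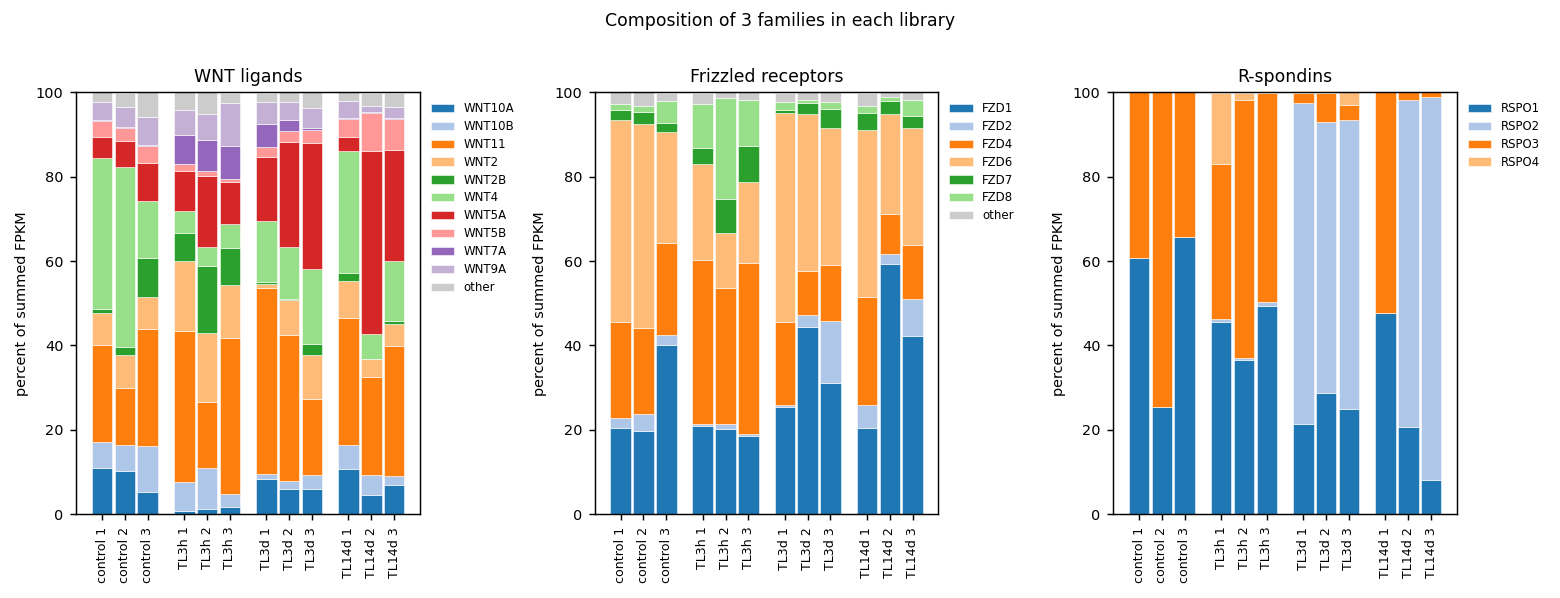
Share of each gene in the summed FPKM of the WNT ligands, frizzled receptors and R-spondins (y axis, percent) in each of the 12 libraries (x axis); genes below 5% in every library are joined as other. WNT4 is small and WNT7A visible in TL3h libraries, FZD4 is wider there, and RSPO2 fills more than 60% of the R-spondins in TL3d libraries and in TL14d replicates 2 and 3.

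Among the ligands at 3 days, WNT7A was at 7.54, 3.60 and 0.597 CPM, above every control library but close to them in TL3d replicate 3 (log2FC 3.68, SE 0.76, q = 0.0164 by edgeR). It was called at 3 hours as well, in a comparison with the same control libraries. WNT3 (chromosome 19, 45832190 to 45867390), a ligand that signals through beta-catenin, was at 0.706 ± 0.296 CPM in TL3d tissue against 1 count or fewer in each control library. Its mean was at least 9.56-fold higher than the floor of the control group (q = 0.0431).

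WNT16 (chromosome 7, 23415062 to 23426987), a ligand known from bone, was at 2.49, 3.68 and 6.17 CPM in control libraries and at 0.624, 0.585 and 1.74 CPM in TL3d libraries (log2FC -2.06, SE 0.52, q = 0.0266 by edgeR). WNT10B (chromosome 4, 33264983 to 33269868), a ligand that restrains fat cell formation, was at 12, 9.83 and 11.6 CPM in control libraries and at 1.80, 3.17 and 3.90 CPM in TL3d libraries (log2FC -1.92, SE 0.55, q = 0.0393). Both genes were lower in all 3 TL3d libraries than in any control library. The neighbor of WNT10B, WNT1 (chromosome 4, 33274956 to 33280794), was at 1.25 ± 0.533 CPM in controls and 1.39 ± 0.550 CPM in TL3d tissue (q = 0.891).

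WNT5A was at 4.89, 4.98 and 4.84 CPM in control libraries and at 11.6, 20.3 and 17.7 CPM in TL3d libraries. The groups were apart, and the gene was not called (log2FC 1.75, SE 0.71, q = 0.107 by edgeR). WNT5A was called at 3 days by DESeq2 (q = 0.0444), with only the groups compared (q = 0.0109) and without TL14d replicate 1 (q = 0.0127). WNT10A and WNT4, which had fallen at 3 hours, were at 10.3 ± 2.95 and 13.1 ± 0.514 CPM at 3 days, between their levels at 3 hours and in controls (q = 0.415 and 0.14 against the control group).

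The secreted antagonists at 3 days spread widely over the libraries. FRZB was at 2.12, 7.85 and 25.2 CPM in TL3d libraries, below all control libraries, and was not called (log2FC -3.56, SE 1.31, q = 0.0825 by edgeR, and q = 0.00654 by DESeq2). WIF1 was at 47.5, 96.3 and 109 CPM in TL3d libraries (log2FC -1.79, q = 0.178). SFRP2 went from 2.97 CPM in TL3d replicate 1 to 931 CPM in TL3d replicate 3, and DKK3, SFRP4 and DKK2 had the same order. The summed level of the fibroblast genes was 1486, 11927 and 65189.6 CPM in TL3d replicates 1, 2 and 3, which is the same order, and its part in these values was not tested.

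**Figure D4:**
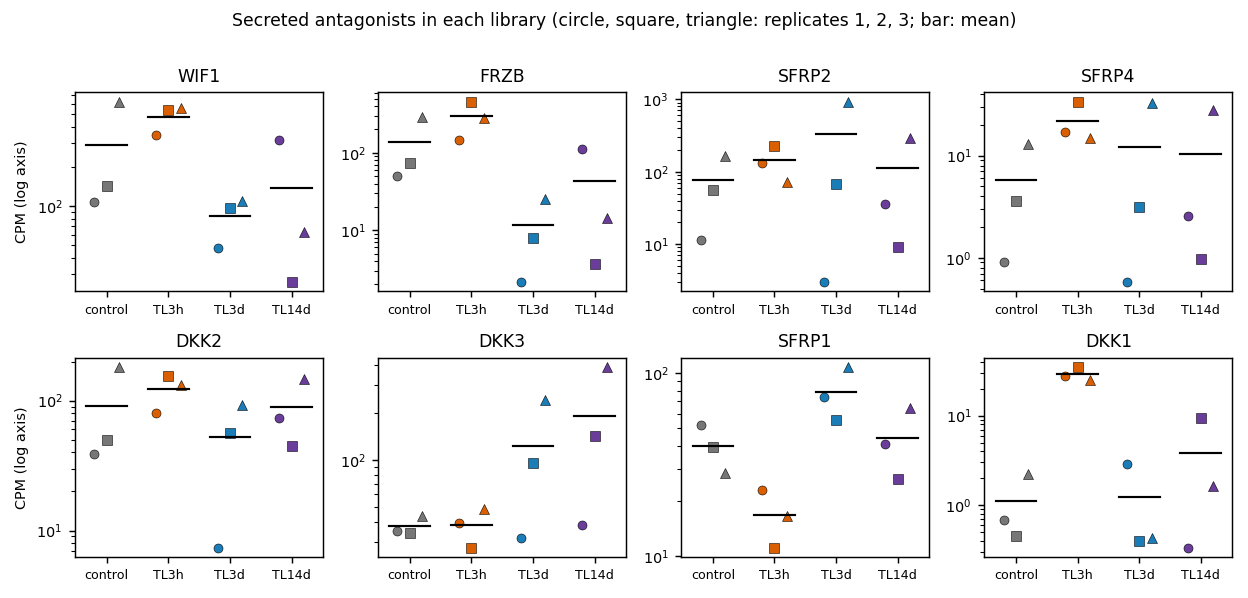
Level in CPM (y axis, log scale) of 8 secreted antagonists in each library of the 4 groups (x axis), where circle, square and triangle are replicates 1, 2 and 3 and the bar is the mean. Control replicate 3 and TL3d replicate 3 are the highest of their groups for WIF1, FRZB, SFRP2, SFRP4, DKK2 and DKK3, and DKK1 is high in the 3 TL3h libraries.

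No call at 3 days held in all fits that left out 1 library. WNT7A was lost without control replicate 1 or 2 or TL3d replicate 1 or 2 (q = 0.0524 to 0.062), with a log2FC of 2.78 without TL3d replicate 1, and WNT16 without any 1 control library or TL3d replicate 1 or 2 (q = 0.0503 to 0.0975). The log2FC of WNT16 was -2.76 without TL3d replicate 3. With only the groups compared WNT16 was also lost (q = 0.053), and with no filter on low counts WNT3 was (q = 0.0516). RSPO2 was lost without any 1 control or TL3d library (q = 0.0625 to 0.108), WNT10B without any 1 of these or TL3h replicate 1 (q = 0.0528 to 0.129), and WNT3 without any 1 of the 9 control, TL3h and TL3d libraries (q = 0.054 to 0.13). The number of calls was 0 without control replicate 1, control replicate 2 or TL3d replicate 2, 1 without TL3d replicate 1, 3 without control replicate 3, TL3h replicate 1 or TL3d replicate 3, 9 without TL14d replicate 1, and 10 without control replicate 3, TL3d replicate 3 and TL14d replicate 1 together. All genes called were 25% and 25.9% in the last 2 of these fits.

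At 14 days, edgeR called 0 of the 46 WNT genes and 0% of all genes tested. At an unadjusted p under 0.05 there were 6 of the 46 genes, beside 10.4% of all genes, and DESeq2 called 3 over all libraries (RSPO2 with q = 0.000163, WNT5A with q = 0.014 and WNT5B with q = 0.0289), beside 2.47% of all genes. The groups did not overlap for 7 WNT genes, all of them higher than in controls, beside 11.1% of all genes in either direction (6.03% higher and 5.11% lower). The 5 genes with the smallest p were RSPO2, WNT5A, WNT5B, WNT3 and DKK3.

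RSPO2 in TL14d replicates 1, 2 and 3 was at 0, 3.26 and 27.3 CPM (q = 0.346 by edgeR), and WNT5A was at 4.07, 61.8 and 23.8 CPM (log2FC 2.61, SE 0.73, q = 0.346). In both genes TL14d replicate 1 lay at or below the control libraries and the other libraries lay far above them. WNT3 was at 0, 1.52 and 0.0976 CPM (q = 0.369) and DKK3, a DKK-related protein with no clear part in WNT signaling, at 38.4, 142 and 392 CPM (log2FC 2.35, SE 0.82, q = 0.405). WNT5B was at 7.46, 18.4 and 9.57 CPM, above the control libraries in all 3 (log2FC 1.51, SE 0.43, q = 0.346).

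TL14d replicate 1 was also near the control libraries for RSPO3, at 4.37 CPM against 0.0543 and 0.228 CPM in TL14d replicates 2 and 3. In the R-spondin sum it held 0% RSPO2, and the other TL14d libraries held 77.5% and 90.9%. Without TL14d replicate 1, 4 WNT genes were called at 14 days, beside 4.74% of all genes: WNT5A (log2FC 3.13, q = 0.00974), RSPO2 (10.33, q = 0.0128), WNT3 (6.10, q = 0.0427) and RSPO3 (-4.69, q = 0.0461). The log2FC values of RSPO2 and WNT3 rest on control levels at or under the floor and depend on the prior count. The number of calls was 6 without control replicate 3, TL3d replicate 3 and TL14d replicate 1, beside 8.17% of all genes. Leaving out another TL14d library lowered the values: the log2FC was 1.51 for WNT5A (q = 0.978) and 2.15 for WNT3 (q = 0.978) without TL14d replicate 2, and 7.11 for RSPO2 (q = 0.573) and 1.26 for DKK3 (q = 0.729) without TL14d replicate 3. That edgeR made no call over all libraries does not show that levels had returned to those of the control group.

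Over the 3 time points together, edgeR called 23 of the 46 genes, beside 52.4% of all genes. These were the 20 genes that edgeR called against the control group at 3 hours or 3 days and WNT5A (q = 0.0254), WNT6 (q = 0.0141) and WNT8B (q = 0.0437). The comparison of TL3d with TL3h, which does not use the control libraries in its contrast, called 15 of the 46 genes (10 higher and 5 lower at 3 days), beside 37.3% of all genes, and the groups did not overlap for 23, beside 54.7%. The 10 include RSPO2 and WNT3, whose higher level at 3 days was in part a condition of their choice. With library size only, 17 WNT genes were higher and 4 lower in TL3d tissue.

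FZD4 was at 119, 72.4 and 68.1 CPM in TL3d libraries, below all TL3h libraries (log2FC -1.55, SE 0.20, q = 0.000332 by edgeR, TL3d versus TL3h). DKK1 was at 2.87, 0.4 and 0.427 CPM (log2FC -4.55, SE 1.23, q = 0.0156). WNT10A (3.09, SE 0.54, q = 0.00168), NKD1 (1.70, SE 0.38, q = 0.00601) and SFRP1 (2.23, SE 0.41, q = 0.00207) were higher in TL3d tissue than in TL3h tissue. The calls of WNT10A, WNT5B, FZD4, FZD8, SFRP1 and NKD1 in this comparison were not ended by leaving out any single library. Without TL3d replicate 2, the q of DKK1 was 0.0606. Between 14 days and 3 days, edgeR called 1 WNT gene (WNT5B, higher at 14 days) and 0 were lower, beside 2.24% of all genes called and 1.59% lower, and the groups did not overlap for 7, beside 27.4%. DESeq2 called 6, beside 12.5% of all genes, 5 higher and WNT7A lower at 14 days (log2FC -3.09, q = 0.000904). WNT7A was at 0.437, 0.652 and 0.293 CPM in TL14d libraries.

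Several genes had a second row outside the symbol rule. Rows named by locus and annotated as LRP5-like and axin-1 lie on unplaced sequence, as do LRP5 and AXIN1 themselves, so reads of these genes may be divided between rows. The LRP5-like row was at 22.5 ± 0.597 CPM in controls and 14.1 ± 2.95 CPM in TL3h tissue (log2FC -0.67, SE 0.16, q = 0.00677 by edgeR), the same direction as LRP5. The axin-1 row had a log2FC of -0.06 at 3 hours (q = 0.791), near that of AXIN1. A row annotated as Wnt-2b-like went from 1.05 ± 0.607 to 0.188 ± 0.131 CPM at 3 hours (log2FC -2.45, q = 0.0253), while WNT2B was at 19.9 ± 17.9 and 39.8 ± 20.3 CPM (q = 0.534). A row annotated as frizzled-10 was at 2.83 ± 1.27 CPM in controls, 1.95 ± 0.245 in TL3h tissue, 5.15 ± 0.596 in TL3d tissue and 7.39 ± 2.64 in TL14d tissue, and was called in TL3d versus TL3h alone of the comparisons made (log2FC 1.40, q = 0.0121).

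At the level of transcripts, 59 of 65 annotated transcripts of the 46 genes were tested. At 3 hours, 15 were called (6 higher and 9 lower), beside 28.3% of all transcripts, at 3 days 1 was called by edgeR (WNT7A), beside 5.13%, and 9 by DESeq2, and at 14 days 0 by edgeR and 2 by DESeq2. The count at 3 hours was 7 without control replicate 1. In 10 genes with several tested transcripts, no gene had calls in both directions. Both tested transcripts of WNT5B fell at 3 hours. The one of 1385 bases went from 3.21 ± 2.18 to 0.838 ± 0.376 CPM (log2FC -1.93, q = 0.0484), and the one of 1305 bases from 0.910 ± 0.884 CPM to 0 in all 3 TL3h libraries (q = 0.022). In LGR5, the transcript of 4043 bases was called (3.38 ± 1.06 to 0.564 ± 0.437 CPM, log2FC -2.57, q = 0.0265), and those of 4532 bases (log2FC -1.26, q = 0.194) and 4460 bases (1.45, q = 0.73) were not. The difference between these transcripts was not tested.

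Other genes of the pathway were taken from lists of 81 genes, of which 69 had a row and 65 were tested. At 3 hours, 26 of the 65 were called (8 higher and 18 lower), which is 40% beside 45.4% of all genes, and at 3 days 9 were called (3 higher and 6 lower), which is 13.8% beside 17.6%. DESeq2 called 17 at 3 days, and edgeR called 1 without control replicate 1 and 15 without TL14d replicate 1. At 14 days edgeR called 0, with 13 at an unadjusted p under 0.05, beside 10.4% of all genes, and DESeq2 called 4. The counts of the lists below are to be read beside the same shares of all genes. With library size only, 6 rose and 28 fell at 3 hours. Neither of the genes for the release of WNT proteins was called against the control group. WLS, the carrier that takes WNT proteins to the cell surface, was at 243 ± 36.6 CPM in controls, 393 ± 154 in TL3h tissue and 165 ± 70.2 in TL3d tissue, and was called lower in TL3d versus TL3h (log2FC -1.25, q = 0.0247). PORCN, which attaches the lipid, was at 5.46 to 8.98 CPM in controls and 7.28 to 11.7 CPM in TL3h tissue.

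Of 13 receptors outside the frizzled family and planar polarity genes, 3 were called at 3 hours and all fell. The atypical cadherins CELSR2 and CELSR1 and the membrane protein VANGL2, which set up planar cell polarity with FZD6, went from 109 ± 23.1 to 26.6 ± 7.52 CPM (log2FC -2.03, q = 0.000823 by edgeR), from 137 ± 27.3 to 53.1 ± 26.7 CPM (-1.37, q = 0.00912) and from 16.5 ± 1.42 to 4.52 ± 0.431 CPM (-1.87, q = 0.000249). VANGL2 was also called at 3 days, at 7.50 ± 2.28 CPM (log2FC -1.14, q = 0.0166), but not without control replicate 1 or 2 (q = 0.0593 and 0.0561). The 10 others of this list were not called at 3 hours.

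Of 14 other extracellular regulators, 3 were called at 3 hours and 2 at 3 days. KREMEN1, a receptor that binds DKK1 and removes LRP6 from the surface, went from 228 ± 27.6 CPM in controls to 109 ± 18.7 at 3 hours (log2FC -1.07, q = 0.000479 by edgeR) and 151 ± 10.7 at 3 days (log2FC -0.59, q = 0.0304). TSPAN12, a partner of FZD4 in norrin signaling, fell from 17.7 ± 4.57 to 5.93 ± 2.57 CPM at 3 hours (log2FC -1.57, q = 0.00416), while FZD4 rose. TPBG, an inhibitor of WNT signaling at the membrane, rose from 18.0 ± 2.1 to 49.8 ± 10 CPM (log2FC 1.47, q = 0.00402). APCDD1, a membrane inhibitor that binds WNT and LRP proteins, was at 87.1, 61.1 and 173 CPM in control libraries and at 20.2, 18.3 and 24.6 CPM in TL3d libraries (log2FC -2.35, q = 0.00993). Its values at 3 days were all below the lowest control library. The call of KREMEN1 at 3 days was lost without control replicate 1 or 2 or any 1 TL3d library (q = 0.0675 to 0.108).

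The intracellular genes had 17 calls in 29 at 3 hours, 4 higher and 13 lower, and 5 calls at 3 days. TCF7L1, a TCF factor that acts mostly as a repressor, fell from 23.3 ± 3.44 to 5.21 ± 1.73 CPM at 3 hours (log2FC -2.16, q = 0.000233 by edgeR), and TCF7 from 4.64 ± 1.30 to 1.29 ± 0.151 CPM (-1.84, q = 0.0181). BTRC, which marks beta-catenin for degradation, fell from 37.6 ± 2.97 to 9.06 ± 1.13 CPM at 3 hours (-2.05, q = 4.48e-05) and was at 20 ± 3.44 CPM at 3 days (-0.91, q = 0.0144). BCL9L, a coactivator of beta-catenin, fell from 103 ± 37.6 to 30.0 ± 0.620 CPM (-1.78, q = 0.000273). The 4 genes of this list that rose at 3 hours, given after their values were seen, were APC, a scaffold of the beta-catenin destruction complex (130.3 ± 15.4 to 346 ± 120.5 CPM, log2FC 1.41, q = 0.000976), and the kinases CSNK1D (1.07, q = 0.000939), CSNK1A1 (0.90, q = 0.000526) and GSK3A (0.69, q = 0.000894). At 3 days DVL2 (-0.81, q = 0.0169) and AMER1 (-1.11, q = 0.0399) fell, and CSNK1G1 rose (1.13, q = 0.0322). TCF7 at 3 hours was lost without control replicate 2 or TL3h replicate 2 or 3 (q = 0.0502 to 0.061). At 3 days BTRC and DVL2 were lost without control replicate 1 or 2 or TL3d replicate 1 or 2 (q = 0.0527 to 0.0596 and 0.0561 to 0.0666), and CSNK1G1 without these or control replicate 3 (q = 0.058 to 0.106). AMER1 was lost without any 1 of 6 libraries, namely these 4, TL3h replicate 3 and TL14d replicate 3 (q = 0.0529 to 0.132).

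Of 7 other genes that are often reported as targets of beta-catenin, 3 were called at 3 hours, and all rose. MYC, a growth regulator, was at 20.7, 14.6 and 64.6 CPM in control libraries and at 242, 214 and 203 CPM in TL3h libraries (log2FC 2.72, q = 0.00129 by edgeR, and 3.58 without control replicate 3). CD44, a hyaluronan receptor that is also high in leukocytes, was at 224, 204 and 241 CPM in control libraries and at 1073, 983 and 1127 CPM in TL3h libraries (2.25, q = 0.00188), and at 746 ± 112 CPM at 3 days (1.74, q = 0.0229). TBX3, a transcription factor, went from 0.364 ± 0.192 to 1.71 ± 0.502 CPM at 3 hours (2.22, q = 0.0269). Of the genes of this list without a call, 2 did not overlap between controls and TL3h tissue, given after their values were seen. WISP1 was higher in TL3h tissue (0.78 ± 0.888 to 15.4 ± 6.68 CPM), and TNFRSF19 was lower (9.4 ± 2.79 to 4.55 ± 2.02 CPM). MYC and CD44 respond to many signals besides WNT. The neutrophil genes were highest in the same 3 libraries (1049 to 2791 CPM), and their part in the level of CD44 was not tested. TBX3 was lost with library size only (q = 0.0591) and without control replicate 1 or 3 or TL3h replicate 1 or 2 (q = 0.0657 to 0.0935), and CD44 at 3 days without control replicate 1 or 2 or TL3d replicate 1 or 2 (q = 0.0716 to 0.0805).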

How the data were processed

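Per the labels and the study's methods, polyadenylated RNA was made into stranded TruSeq libraries and sequenced as 150 bp paired-end reads, which the authors mapped to OryCun2.0 with STAR 2.6.0c (submitters' processing notes). The authors deposited estimated counts per gene and transcript made with GeneData Profiler Genome, not scaled by library size, of which 23.4% were fractions per gene. The authors also deposited FPKM, which was used to compare genes within a library, and whose sums over a family are given as levels with no correction for library composition and no test. Columns of per-sample values left unused numbered 0.

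Libraries were grouped by their labels. Estimated counts were rounded, since the planned count test needs whole numbers. The edgeR 4.0.16 filter filterByExpr (minimum count 10, minimum total 15) kept 14835 genes and 26082 of 38710 transcripts. All 12 libraries, with total counts from 27111348 to 38591425, entered 1 quasi-likelihood fit by group (R 4.3.3, TMM, prior count 0.125), adjusted by Benjamini-Hochberg over all genes tested. An exact permutation test of 3 against 3 cannot go below 0.1 and was not used. The fit was tested on simulated data, and libraries within groups were checked for copies, with none found.

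The WNT genes, pathway lists and alternatives were chosen with earlier results of these data known. Every WNT gene called against the control group is named. Values per library are given for up to 8 called genes with the smallest q and at least 1 CPM in either group, and for the highest gene of each role, and where none was called for the 5 smallest p. In each pathway list, up to 4 called genes with the largest log2FC and at least 1 CPM are named. WNT5A, WNT11 at later times, RSPO3, FRZB, LGR4, SFRP2 and MYC, CD44 and APCDD1 were given per library after their values were seen. Alternatives were RLE size factors, library size only, no filter, DESeq2 1.42.0, only the groups compared, a replicate block and leaving out libraries. Sequences of the genes were not used here. NOTUM, NKD2 and other WNT genes without a matching row were not analysed here.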

Additional observations from a re-analysis of the deposited data

Results flagged for a closer look

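The effects at 2 time points differed, by a test of the difference between the time points themselves, for the genes below. Both comparisons with the control group share the control libraries, so the time points were compared directly (edgeR quasi-likelihood test, q adjusted over all genes).

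Between 3 hours and 3 days, the ligands WNT10A (log2FC 3.09, TL3d versus TL3h), WNT3 (5.42, a value that depends on the prior count, or at least 6.06-fold above the floor of the TL3h group), WNT4 (2.14), WNT5B (1.80) and WNT8B (2.63) were higher at 3 days. WNT8B was not called against the control group at either time, at 0.323 ± 0.192 CPM in controls, 0.130 ± 0.123 at 3 hours and 0.817 ± 0.139 at 3 days. Of the receptors, FZD4 (-1.55), FZD7 (-1.61) and FZD8 (-3.69) were lower and FZD6 (0.98) higher at 3 days. Of the secreted antagonists, DKK1 (-4.55) and FRZB (-4.65) were lower and SFRP1 (2.23) higher. In FRZB, the levels were 147, 459 and 278 CPM in TL3h libraries and 2.12, 7.85 and 25.2 CPM in TL3d libraries, with summed fibroblast genes of 106008 to 127550.2 and 1486 to 65189.6 CPM, and their part was not tested. RNF43 (1.39), RSPO2 (6.43, at least 40.7-fold above the floor of the TL3h group, or 14.1-fold without TL3d replicate 3) and NKD1 (1.70) were also higher at 3 days. WNT3 and RSPO2 met the minimum count only by way of TL3d, so their higher level there was in part a condition of their choice.

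Leaving out a single library ended 9 of these 15 calls. FZD7 was lost without any 1 of 9 libraries (q = 0.0525 to 0.147) and with RLE size factors (0.0503), library size only (0.119), no filter (0.0548) or only the groups compared (0.103), WNT3 without any 1 of 6 (0.0527 to 0.108), RSPO2 without any 1 of 5 (0.0504 to 0.0917), RNF43 without any 1 of 4 (0.0508 to 0.0769), and DKK1 without TL3d replicate 2 (0.0606). WNT4, WNT8B, FRZB and FZD6 were each lost without any 1 of 3 libraries (q = 0.0534 to 0.0663, 0.0552 to 0.0694, 0.0587 to 0.0854 and 0.0524 to 0.0625). The fold change, not its log2, moved by over 1.5 times in the fits below, which are given as log2FC. These were WNT3 (7.61) and WNT8B (3.75) without TL3h replicate 1, RSPO2 without TL3d replicate 3 (4.90), FZD8 without TL3h replicate 2 (-2.97), DKK1 without TL3d replicate 1 (-6.13) and FRZB without TL3d replicate 3 (-5.88).

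Between 3 days and 14 days, edgeR called WNT5B alone of the 46 genes (2.13 log2FC, TL14d versus TL3d, q = 0.0406), beside 2.24% of all genes, while DESeq2 also called RNF43, WNT10B, WNT16, WNT6 and WNT7A (q = 0.000904 to 0.0338). WNT6, which was higher at 14 days, met the minimum count only by way of TL14d. WNT5B was at 2.45, 3.20 and 2.45 CPM in TL3d libraries and at 7.46, 18.4 and 9.57 CPM in TL14d libraries, which did not overlap. The call was lost without any 1 of 10 libraries (q = 0.0527 to 0.152), control replicate 3 and TL3h replicate 3 being the exceptions.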

How the results depend on the processing

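Under the 19 alternatives, the direction was recomputed for the called WNT genes and the pathway genes named by the rule. The 5 WNT genes with the smallest p at 14 days were recomputed as well, RSPO2 and WNT3 among them under 18. The direction did not change in any of these fits. APC, CSNK1D, CSNK1A1, GSK3A, WLS, rows named by locus and single transcripts were not recomputed. Of the gene and alternative pairs recomputed, 1025 kept their side of the threshold, 161 lost a call and 9 gained one. Genes not called with all libraries, such as RSPO3, FRZB, LGR4 and WNT5A at 3 days, also gained calls under some alternatives and are not in these counts. Leaving out 1 library gave 10 to 17 called WNT genes at 3 hours (16 with all libraries), 0 to 9 at 3 days (5), 0 to 4 at 14 days (0), 7 to 20 in TL3d versus TL3h (15, lowest without TL3h replicate 2), 0 to 2 in TL14d versus TL3d (1) and 16 to 27 for the 3 time points together (23). For the pathway genes the ranges were 22 to 31 (26), 1 to 15 (9) and 0 to 7 (0) at the 3 time points, and for transcripts 7 to 17 (15), 0 to 6 (1) and 0 to 2 (0). For pathway genes the highest count was reached without TL14d replicate 1 at each time. The lowest was reached without control replicate 1 at 3 hours and 3 days, and at 14 days it was 0, as with all libraries. DESeq2 called 10 WNT genes at 3 days, 3 at 14 days and 6 in TL14d versus TL3d, 17 and 4 pathway genes at 3 and 14 days, and 9 and 2 transcripts. With only the groups compared, 0 WNT genes were called in TL14d versus TL3d and 6 transcripts at 3 days. Without control replicate 3, TL3d replicate 3 and TL14d replicate 1, there were 10 WNT genes at 3 days, 6 at 14 days, 23 in TL3d versus TL3h and 2 in TL14d versus TL3d, 18 and 13 pathway genes and 5 and 4 transcripts. The cause of these moves was not tested. The labels do not say what a replicate number stands for, and the numbers did not meet the rule for pairing, every pair over 0.1: 8 of 18 same-numbered pairs had correlated deviations over 0.1 (range -0.153 to 0.517), and 9 of 12 libraries correlated best with their own number, which is a hint from the data and not from the design. With the replicate number as a block, the counts were 15, 5, 0, 16, 1 and 21 for WNT genes in the order above, 28, 8 and 0 for pathway genes and 15, 1 and 0 for transcripts, and FZD6 (q = 0.0611), NKD1 (q = 0.0639) and AMER1 lost their calls. Genes near the floor of 3 counts, such as WNT3 and RSPO2 in the control group, have folds that depth limits.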
